A study of Mus musculus with 6 samples.

Results

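The ADAM and ADAMTS family comprises metalloproteinases with a disintegrin domain and their relatives. Its members here are the genes with a symbol of Adam and a number, Adamts or Adamtsl that the platform annotation names alone on a probe set, a group of short probes for 1 transcript. On Affymetrix whole-genome mouse arrays 48 of 18193 measured genes met this rule, through 82 probe sets. Expression was measured in fibroblasts sorted for the surface receptor PDGFRα from the ears of male mice aged 4 months. The fibroblasts called cancer-associated (CAF) were those of ears with visible dysplasia in K14-HPV16 mice, where a keratin promoter drives human papillomavirus genes in basal keratinocytes. Normal dermal fibroblasts (NDF) came from normal ears of FVB/n mice without the transgene. Each group had 3 arrays of repetitions that the labels call biological, and 15 mice per genotype are named without saying whether each repetition was its own pool, so p-values measure only the spread between these arrays.

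ADAM proteins span the plasma membrane, and those with an intact catalytic site release the outer part of growth factors, cytokines and receptors. ADAMTS proteins are secreted and carry thrombospondin repeats that hold them in the matrix, where they cut proteoglycans, procollagens and other matrix proteins. ADAMTS-like proteins keep the repeats without the protease domain. In skin these proteins are known from ligand shedding, matrix turnover and microfibril assembly.

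No family member passed the test between CAF and NDF by limma, a linear model with pooled variance, at an adjusted p under 0.05 over all genes, a threshold that 0.517% of all 18193 genes passed (0.489% higher and 0.0275% lower). By the unadjusted p (under 0.05), 4 members were higher and 3 lower in CAF. That is 14.6% of the 48, beside 8.95% of all genes (4.93% higher and 4.02% lower). The values of CAF lay above all NDF values for 3 members (6.25%, beside 6.78% of all genes) and below all of them for 5 (10.4%, beside 8.66%). The median difference was -0.05 on the log2 scale, CAF minus NDF, over the members and -0.04 over all genes. Members with a mean over all arrays at or above 4.84, the median of all probe set means, are called expressed here, and 28 of the 48 were. Adam8 and Adamts6 met this only through CAF, with NDF means of 4.57 and 4.59, and Adamts16 only through NDF, with a CAF mean of 3.89. The Adamts16 gene, which encodes a secreted protease, had the smallest p, with a difference of -2.17 and an adjusted p of 0.0622. It passed with an intensity trend in the prior (adjusted p = 0.0419). With array weights, which gave CAF replicate 3 a weight of 0.17, Adam8, Adam22 and Adamts16 passed (adjusted p = 0.0489, 0.0257 and 0.0146). The trend and the weights each passed more of all genes than the 0.517% above, the weights more so than the trend. These passes of members are thus not specific to the family, and the counts of all genes are given with the other settings below.

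The markers of dermal fibroblasts were above that median on all arrays, for 10 of 10 genes, with array means of 12.25 to 12.41 in NDF and 12.20 to 12.54 in CAF. Most marker lists of other cells had means that separated by group, but not every gene on them did. The CAF arrays lay above all NDF arrays for 7 of 7 neutrophil, 8 of 10 macrophage and dendritic cell and 6 of 8 endothelial markers. That held for 4 of 8 lymphocyte, 8 of 9 keratinocyte and 3 of 7 pericyte and smooth muscle markers, beside 6.78% of all genes. The neutrophil markers had array means of 4.00 to 5.17 in NDF and 7.99 to 9.62 in CAF, with 3 of 7 past the threshold. The macrophage and dendritic cell markers were at 4.82 to 5.24 and 6.70 to 7.61, with 3 of 10 past it, endothelial markers at 5.34 to 5.63 and 6.68 to 7.82 (1 of 8) and lymphocyte markers at 4.17 to 4.28 and 4.81 to 5.84 (1 of 8). Keratinocyte markers were at 8.04 to 8.11 and 8.64 to 9.98 and pericyte and smooth muscle markers at no more than 7.42 in NDF and no less than 7.61 in CAF, with none of 9 and of 7 past it. Mast cell markers, at 4.39 to 4.75 and 4.15 to 5.71, and melanocyte and Schwann cell markers, at 4.93 to 5.31 and 5.22 to 5.64, overlapped between the groups. Chondrocyte markers of ear cartilage were at 9.19 to 9.57 in NDF and 8.20 to 8.73 in CAF, with none of 8 past the threshold and 5 with an unadjusted p below 0.05, all lower. The part of these cells in the family's values was not tested, and fewer cells of a type and less RNA per cell cannot be told apart in such samples. CAF replicate 3 stood apart, with correlations of 0.93 and 0.94 over all genes to the other CAF arrays, which correlated at 0.99. It was the array farthest from the others of its group for 20 of the 28 expressed members (71.4%), beside 59.1% of all genes at or above the median.

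**Figure D1:**
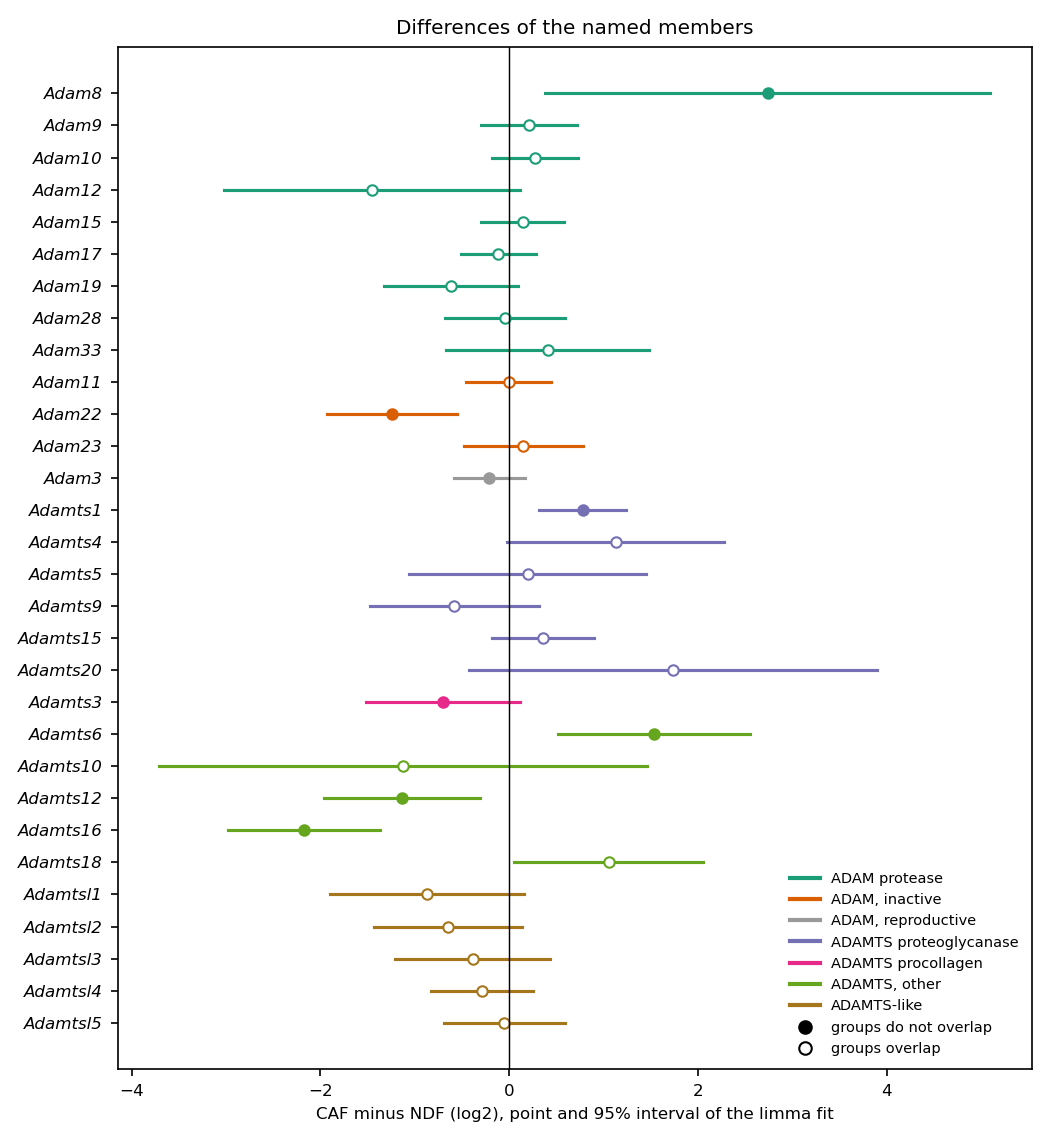
Difference between CAF and NDF (log2, x axis) of the 30 named members, with the 95% interval of the limma fit, coloured by role; filled points mark members whose 3 CAF and 3 NDF arrays did not overlap. Adam8, Adamts6 and Adamts1 lie to the right with filled points, and Adamts16, Adam22 and Adamts12 lie to the left with intervals that leave out 0.

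Among the 9 ADAM proteases of somatic tissues, all of them expressed, 1 had an unadjusted p below 0.05. That is 11.1%, beside 12% of all genes at or above the median. It was Adam8, higher in CAF, a protease known from myeloid cells, which counts as expressed only through its CAF mean. Adam8 was at 5.03, 4.41 and 4.25 in NDF and at 7.10, 9.57 and 5.24 in CAF. Every CAF array lay above the NDF arrays, but CAF replicate 3 exceeded the highest NDF array by only 0.21. The difference was 2.74 ± 0.99 (SE), or 6.67-fold on this scale, with an adjusted p of 0.464. Without CAF replicate 2 it was 1.60 and without CAF replicate 3 it was 3.77 (adjusted p = 0.532 and 0.0885). On the same arrays the neutrophil markers averaged 5.17, 4.00 and 4.37 in NDF and 7.99, 9.62 and 8.91 in CAF. The macrophage and dendritic cell markers averaged 6.70, 7.24 and 7.61 in CAF. In NDF, 5 of the 7 neutrophil markers and 4 of the 10 macrophage and dendritic cell markers were below the median probe set on every array. Adam8 was thus highest on the array with the highest neutrophil mean, while CAF replicate 3 had a high mean of both lists and a low Adam8 value. The part of leukocytes in the Adam8 values was not tested.

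**Figure D2:**
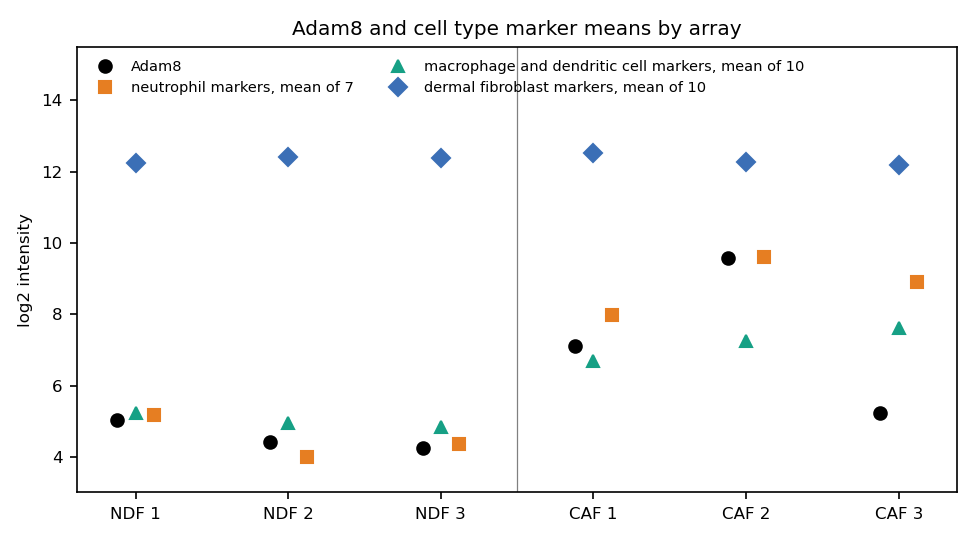
Log2 intensity of Adam8 and the array means of 3 marker lists (y axis) on each array (x axis); points of Adam8 and the neutrophil list are shifted sideways to keep them apart. Adam8 and both leukocyte lists are higher on every CAF array than on any NDF array, Adam8 drops to 5.24 on CAF replicate 3, and the fibroblast mean stays between 12.20 and 12.54.

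The widely expressed sheddases had differences of at most 0.28 in size on the probe sets that stand for them. Adam17, which releases TNF and many ligands of the EGF receptor, was at 9.96, 9.95 and 10.18 in NDF and at 9.95, 9.85 and 9.94 in CAF. Its difference was -0.12, with a 95% interval of -0.52 to 0.28. Its 3 probe sets, all at or above the median, gave differences of -0.48 to -0.12, and on 1 of them (-0.34) the groups did not overlap. Adam10, which cuts Notch receptors and cadherins, was at 11.65, 11.36 and 11.52 in NDF and at 11.64, 11.69 and 12.02 in CAF. The groups overlapped, and the difference was 0.28 with an interval of -0.18 to 0.73. On another expressed probe set of Adam10 the CAF arrays lay above the NDF arrays by a gap of 0.02, with a difference of 0.52, and the remaining expressed one differed by 0.50 with overlap. Adam9, another widely expressed member, differed by 0.21 (-0.30 to 0.72). Adam15 differed by 0.14 (-0.29 to 0.58) on a probe set that can match other transcripts. Leaving such probe sets out, the difference of Adam15 was -0.31.

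Adam12 and Adam19, proteases of mesenchymal cells, had lower means in CAF and a wide spread. Adam12 was at 11.32, 8.57 and 9.88 in NDF and at 8.51, 8.01 and 8.89 in CAF. The NDF arrays spanned more than the groups differed, and NDF replicate 2 lay below the highest CAF array. The difference was -1.46 ± 0.66 (SE, adjusted p = 0.602), and it was -0.76 without NDF replicate 1 and -2.13 without NDF replicate 2. The other probe set of Adam12 gave nearly the same array values, from 11.24 in NDF replicate 1 down to 7.59 in CAF replicate 2, and a difference of -1.47. Adam19 was at 8.52, 7.54 and 8.10 in NDF and at 7.75, 7.42 and 7.15 in CAF, a difference of -0.61 (adjusted p = 0.638) that was -0.38 without NDF replicate 1. On its other probe set, at 8.25, 7.59 and 7.93 and then 7.51, 7.51 and 6.67, the groups did not overlap and the difference was -0.70. In both genes NDF replicate 1 was the highest array. Adam33, known as an asthma susceptibility gene, and Adam28, known from lymphocytes, differed by 0.41 (-0.67 to 1.48) and -0.05 (-0.68 to 0.59). With 1 array left out the difference of Adam33 ran from 0.08, without NDF replicate 1, to 0.83, without CAF replicate 3.

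Of the 3 ADAMs of nervous tissue without an active catalytic site, Adam22 was lower in CAF. This receptor of the secreted protein LGI1 was at 9.59, 9.60 and 9.72 in NDF and at 8.69, 8.73 and 7.77 in CAF. The NDF arrays lay within a narrow range, the groups did not overlap, and CAF replicate 3 was the lowest array. The difference was -1.24 ± 0.29 (SE), with an interval of -1.93 to -0.56 and an adjusted p of 0.181. Without CAF replicate 3 it was -0.93 (adjusted p = 0.0619). The other Adam22 probe set was near the floor of the scale, with a mean of 3.43, and differed by 0.01. Adam23, the other LGI1 receptor, was at 10.84, 10.80 and 11.18 in NDF and at 10.86, 10.82 and 11.60 in CAF, a difference of 0.15 with an interval of -0.48 to 0.78. Adam11 had a difference of 0.00 in size, with an interval of -0.45 to 0.45. Its other probe set, below the median with a mean of 3.49, differed by -0.55 without overlap (unadjusted p = 0.0382 by limma, adjusted p = 0.589 over all probe sets).

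None of the 16 measured ADAMs known mainly from testis, epididymis and sperm was expressed by the definition above, and their array values ran from 2.38 to 5.24. Adam3, a sperm surface protein gene, was the only one without overlap, at 3.77, 3.83 and 3.76 in NDF and 3.59, 3.56 and 3.58 in CAF. With CAF below NDF, that is 6.25% of the 16, beside 8.66% of all genes. The Adam3 difference of -0.21 lies at the floor of the scale (adjusted p = 0.813). The other 15 differed by -0.22 to 0.35.

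**Figure D3:**
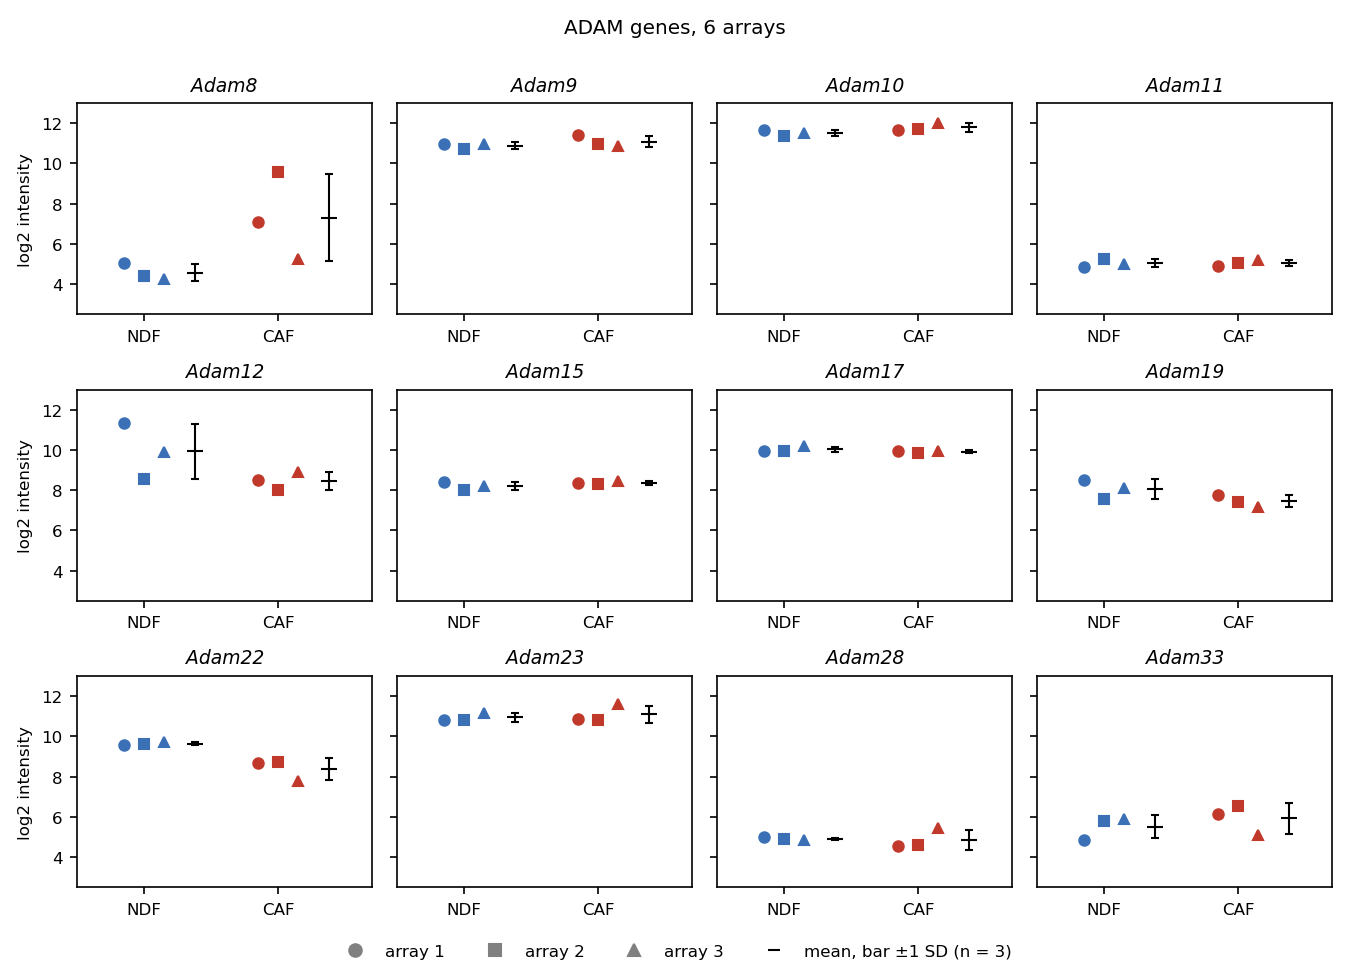
Log2 intensity (y axis) of 12 ADAM genes on the 3 NDF and 3 CAF arrays, with the mean and SD of each group; array numbers have their own marker. Adam8 spreads widely in CAF and Adam12 in NDF, Adam22 is lower on all CAF arrays, and the levels of different genes are not comparable on this scale.

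The ADAMTS proteoglycanases cut large proteoglycans such as versican and aggrecan. Of 7 measured, 6 were expressed, and the median difference was 0.78. Differences were positive for 6 of the 7, beside 8093 of all 18193 genes. An unadjusted p below 0.05 was found for 1 (14.3%, beside 8.95% of all genes). Adamts1 was at 8.47, 8.97 and 8.65 in NDF and at 9.51, 9.41 and 9.51 in CAF. The CAF arrays agreed within 0.06 (SD) and lay above all NDF arrays. The difference was 0.78 ± 0.19 (SE), or 1.71-fold, with an interval of 0.32 to 1.24 and an adjusted p of 0.216. It stayed between 0.66 and 0.91 with any single array left out.

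Adamts4, an aggrecanase that inflammatory cytokines are known to induce, was at 11.28, 9.34 and 10.25 in NDF and at 11.06, 11.41 and 11.78 in CAF. NDF replicate 1 lay above CAF replicate 1 and below the other CAF arrays, so the groups overlapped. The difference was 1.13 ± 0.48 (SE, adjusted p = 0.571), 1.62 without NDF replicate 1 and 0.65 without NDF replicate 2. Its other probe set repeated this order of the NDF arrays, at 10.31, 7.76 and 9.08, with CAF at 10.23, 10.50 and 11.11. There the groups also overlapped, and the difference was 1.56 (unadjusted p = 0.0401 by limma, adjusted p = 0.599 over all probe sets). Adamts5, the other main aggrecanase, was at 9.23, 9.72 and 9.98 in NDF and at 10.75, 10.10 and 8.66 in CAF. Its CAF arrays lay on both sides of the NDF range, and its 4 expressed probe sets gave differences of -0.43 to 0.19. Adamts15 differed by 0.36 (-0.18 to 0.90), or 0.18 without NDF replicate 1.

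Adamts9, a versicanase with a role in skin pigmentation, was at 10.85, 9.47 and 10.35 in NDF and at 9.49, 10.03 and 9.40 in CAF, a difference of -0.58 (adjusted p = 0.773), which was -0.27 without NDF replicate 1 and -0.96 without NDF replicate 2. Its second expressed probe set differed by 0.70, in the opposite direction. Adamts20, its close relative, was at 4.32, 6.36 and 5.61 in NDF and at 5.63, 6.81 and 9.05 in CAF. CAF replicate 3 carried most of that difference of 1.73 (adjusted p = 0.676), which was 0.79 without it. Adamts8, the member below the median, ran from 3.09 to 5.74 with a difference of 0.98 (adjusted p = 0.745).

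Adamts3, a procollagen N-proteinase, was at 10.24, 9.93 and 9.99 in NDF and at 9.68, 9.79 and 8.58 in CAF. The groups did not overlap, with a gap of 0.14. The difference was -0.70 ± 0.34 (SE, adjusted p = 0.639), and it was -0.32 without CAF replicate 3. It is the only procollagen N-proteinase analysed here.

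Of the 7 other ADAMTS proteases measured, 4 were expressed, and 4 had an unadjusted p below 0.05, with 2 in each direction, beside 4.93% of all genes higher and 4.02% lower. Adamts16 was at 6.58, 5.39 and 6.22 in NDF and at 4.03, 4.10 and 3.55 in CAF. The lowest NDF array was 1.30 above the highest CAF array. The CAF values lie below the median probe set, where the scale compresses differences, so the difference of -2.17 ± 0.34 (SE), or 4.51-fold, is a value on this scale and not a ratio of transcripts. Its interval was -2.98 to -1.37, and with any single array left out the difference stayed between -2.51 and -1.91, at adjusted p values of 0.0739 to 0.287. The second Adamts16 probe set, with a mean of 4.34, was at 3.99, 4.27 and 4.64 in NDF and 4.22, 4.13 and 4.81 in CAF, and showed no such separation (difference 0.09).

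Adamts12, which is known to cut the cartilage protein COMP, was at 9.74, 8.56 and 8.94 in NDF and at 8.25, 8.03 and 7.55 in CAF. All CAF arrays were lower, and the difference was -1.14 ± 0.35 (SE, adjusted p = 0.347). The chondrocyte markers were lower on the same arrays, by a median of -0.91 over 8 genes, with array means of 8.20, 8.73 and 8.57 in CAF. Of these markers 7 had negative differences and 1, Comp, a positive one (0.28, with overlap). Among the CAF arrays, replicate 1 had the highest Adamts12 value and the lowest chondrocyte mean, and replicate 3 had the lowest Adamts12 value. The part of chondrocytes in the Adamts12 values was not tested. Adamts6, known from heart development and microfibrils, was at 4.60, 4.30 and 4.89 in NDF and at 5.60, 7.10 and 5.67 in CAF. The groups did not overlap, and the difference was 1.53 ± 0.43 (SE, adjusted p = 0.29), but its other expressed probe set differed by -0.07. Adamts18, which is below the median, was at 3.25, 4.73 and 3.80 in NDF and at 5.46, 4.52 and 4.96 in CAF, with overlap and a difference of 1.05 (adjusted p = 0.529). Adamts10, a fibrillin-binding member mutated in a short stature syndrome, was at 7.69, 8.84 and 7.78 in NDF and at 8.04, 8.61 and 4.30 in CAF. CAF replicate 3 alone was low, and without it the difference of -1.12 became 0.22. Adamts7 and Adamts19, below the median, differed by 0.20 and 0.16.

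All 5 measured ADAMTS-like genes were expressed and had negative differences, none at an unadjusted p under 0.05, with a median of -0.39. Differences were negative for 57.7% of all genes at or above the median. On other settings Adamtsl5 turned positive, as on the mean of its probe sets (0.17). Adamtsl1 was at 9.52, 10.08 and 9.79 in NDF and at 9.54, 9.30 and 7.94 in CAF, a difference of -0.87 (adjusted p = 0.647), while its other expressed probe set differed by 0.43. Adamtsl2, which binds fibrillin and is mutated in geleophysic dysplasia, was at 5.54, 6.51 and 5.87 in NDF and at 5.61, 5.53 and 4.82 in CAF, a difference of -0.65 (adjusted p = 0.665). The groups overlapped in both genes, and CAF replicate 3 was the lowest array. Without it the differences were -0.38 for Adamtsl1 and -0.40 for Adamtsl2, and without NDF replicate 2 that of Adamtsl2 was -0.38. Adamtsl3 differed by -0.39 (-1.21 to 0.44) and by -0.02 without CAF replicate 3. Adamtsl4, another microfibril protein gene, differed by -0.29 (-0.83 to 0.25), or -0.11 without NDF replicate 2, and Adamtsl5 by -0.05 (-0.69 to 0.59).

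**Figure D4:**
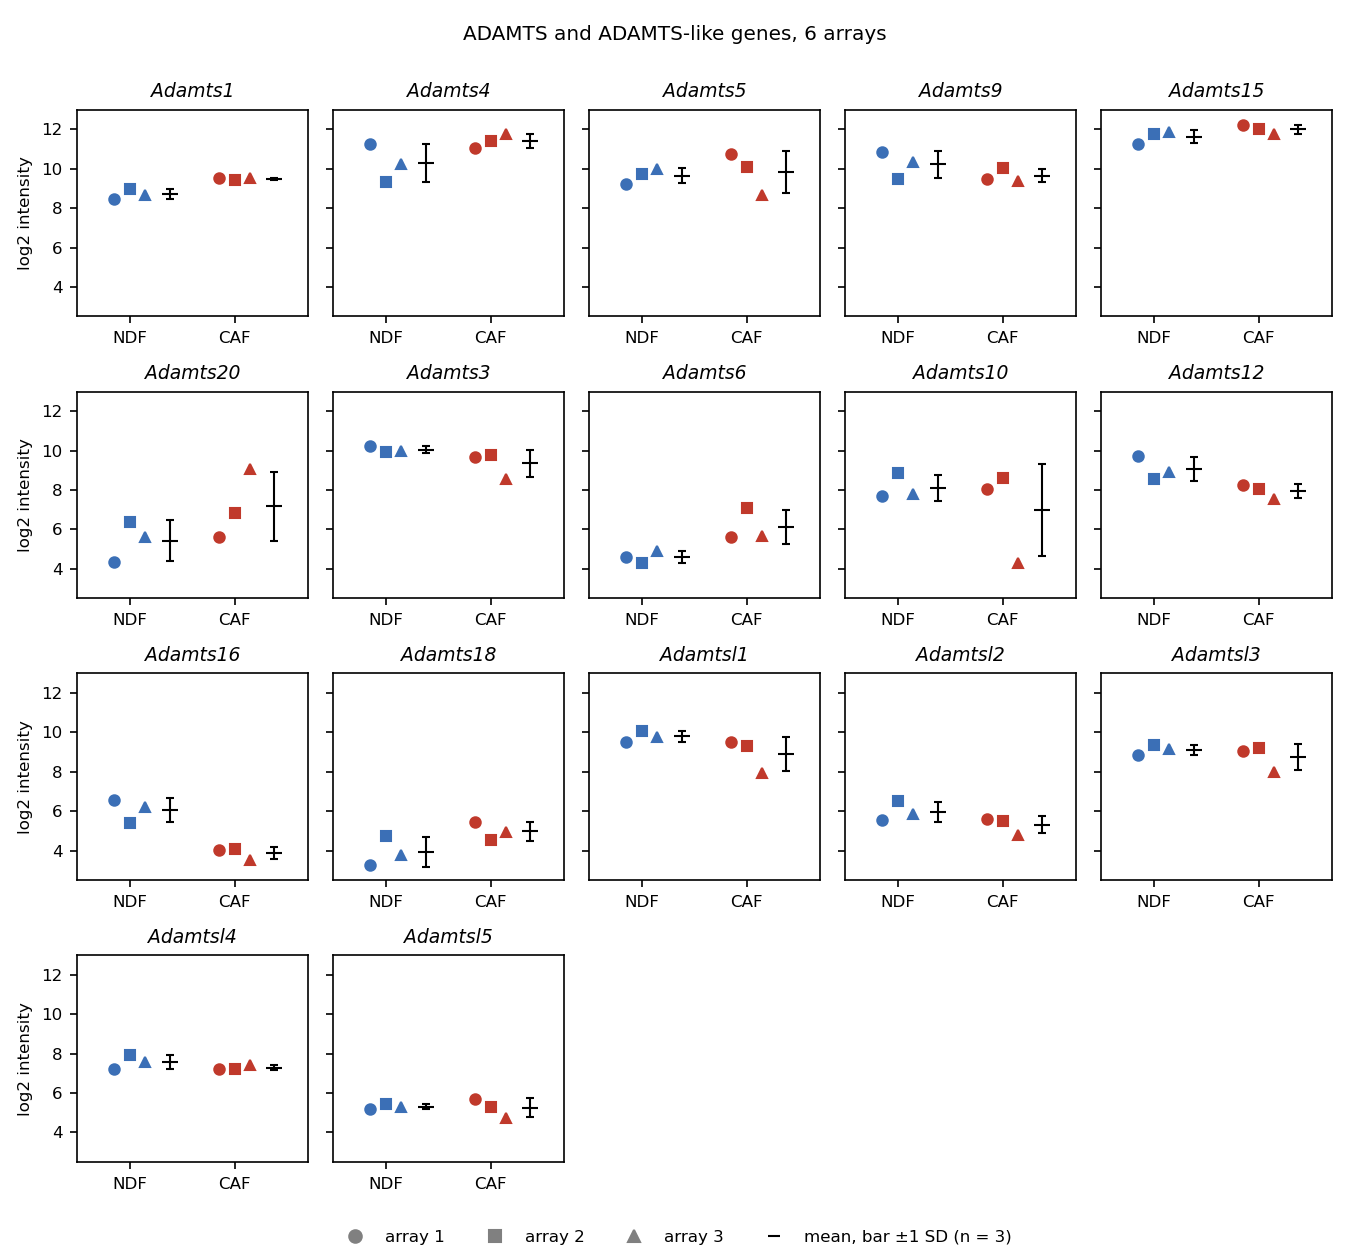
Log2 intensity (y axis) of 17 ADAMTS and ADAMTS-like genes on the 3 NDF and 3 CAF arrays, with the mean and SD of each group; array numbers have their own marker. Adamts1 and Adamts6 are higher and Adamts3, Adamts12 and Adamts16 lower on all CAF arrays, and CAF replicate 3 stands apart in Adamts10 and Adamts20.

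The arrays carried more than 1 probe set for 22 members, and for 12 of these at least 2 probe sets were expressed. All expressed probe sets of a gene had 1 direction in 6 of the 12 genes, which were Adam10, Adam12, Adam17, Adam19, Adam33 and Adamts4. They had both directions in Adam15, Adam23, Adamts5, Adamts6, Adamts9 and Adamtsl1. For Adam22, Adamts12 and Adamts16 the only other probe set was below the median and differed by 0.01, 0.09 and 0.09.

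**Figure D5:**
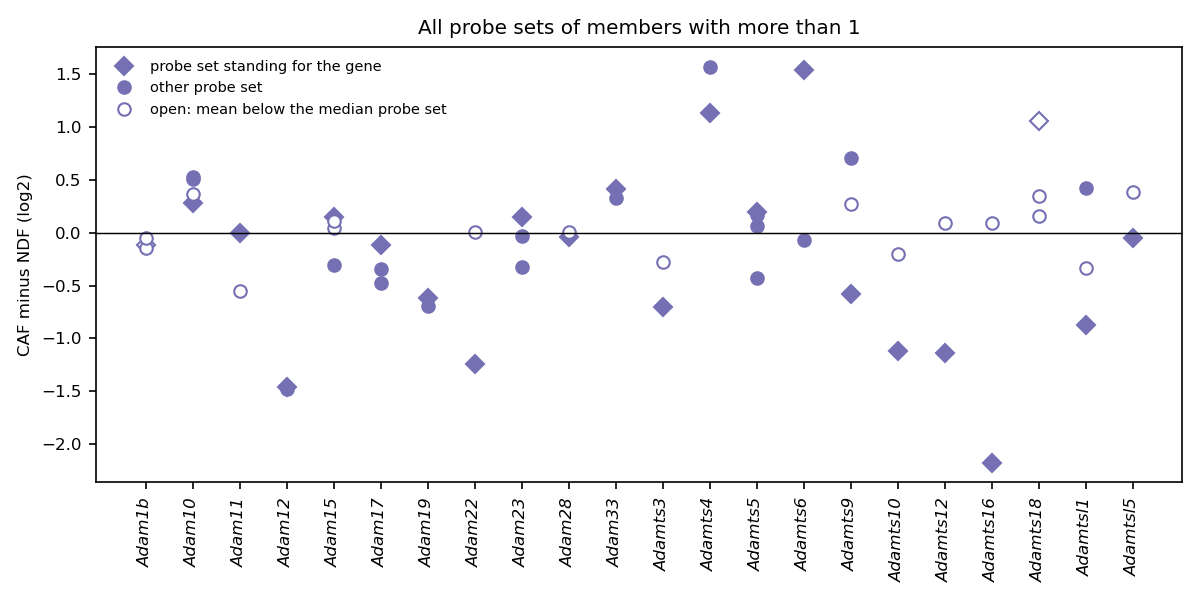
Difference between CAF and NDF (log2, y axis) of every probe set of the 22 members with more than 1 (x axis); diamonds are the probe sets with the highest mean, which stand for the gene, and open symbols have a mean below the median probe set. The expressed probe sets of Adam12 and Adam19 lie close together, and those of Adamts4 run from 1.13 to 1.56. Those of Adamts6, Adamts9 and Adamtsl1 lie on both sides of 0.

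Of the 6 members whose groups separated at an unadjusted p under 0.05, the upstream sequences of 4 are shown. They are given because the study asks about NF-κB, a factor that can bind near the start of its targets, among other places. The RefSeq promoter table of build GRCm38.p6 matched 24 of the 48 members, among them Adam8 and Adamts1, which were higher in CAF, and Adam22 and Adamts12, which were lower. Adamts6 and Adamts16 are named only. Each sequence is the 250 bases before the annotated start, 5′ to 3′ on the gene's strand, with capitals for matches to the κB consensus, the AP-1 motif TGANTCA or the TATAAA motif on either strand.
Adam8 (chr7:139992563-139992812, minus strand): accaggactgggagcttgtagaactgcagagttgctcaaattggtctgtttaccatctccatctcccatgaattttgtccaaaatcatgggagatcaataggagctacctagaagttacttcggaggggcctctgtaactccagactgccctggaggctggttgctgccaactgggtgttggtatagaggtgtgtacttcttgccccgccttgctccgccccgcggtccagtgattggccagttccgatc
Adamts1 (chr16:85803114-85803363, minus strand): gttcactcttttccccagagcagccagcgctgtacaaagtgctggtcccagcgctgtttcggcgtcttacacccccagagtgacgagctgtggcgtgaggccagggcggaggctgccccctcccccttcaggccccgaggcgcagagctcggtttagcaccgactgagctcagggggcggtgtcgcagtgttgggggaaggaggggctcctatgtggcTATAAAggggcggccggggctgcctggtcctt
Adam22 (chr5:8368161-8368410, minus strand): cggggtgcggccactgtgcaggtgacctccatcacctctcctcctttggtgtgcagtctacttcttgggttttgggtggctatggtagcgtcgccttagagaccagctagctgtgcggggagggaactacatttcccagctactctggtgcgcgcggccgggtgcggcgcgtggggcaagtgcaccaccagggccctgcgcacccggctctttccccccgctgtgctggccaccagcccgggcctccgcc
Adamts12 (chr15:11064523-11064772, plus strand): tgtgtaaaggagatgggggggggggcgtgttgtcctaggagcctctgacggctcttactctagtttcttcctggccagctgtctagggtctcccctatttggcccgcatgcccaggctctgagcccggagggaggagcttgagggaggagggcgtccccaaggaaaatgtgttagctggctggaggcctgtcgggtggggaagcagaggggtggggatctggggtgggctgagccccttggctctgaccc
None of these 4 windows held a κB or AP-1 match, and only Adamts1 held TATAAA, from base -32 relative to the start. Over all 32851 windows of this length in the table, 7.25% held a κB match, 6.75% an AP-1 match and 12.4% TATAAA. Among the 26 windows of members the matches numbered 4 windows for κB, in Adam19, Adam1b, Adamts20 and Adamts9, 2 for AP-1, in Adam19 and Adam25, and 4 for TATAAA, in Adam6a, Adam6b, Adamts1 and Adamtsl2. A match describes letters in the window, and its absence says nothing of binding elsewhere.

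Inhibitors, maturation enzymes and partners of these proteases were compared as a list of 20 genes, all of them measured. None passed the test by limma. With an unadjusted p below 0.05, 1 of 20 had a higher and 2 had a lower mean in CAF, beside 4.93% and 4.02% of all genes, with a median difference of 0.03. Timp4, an inhibitor of metalloproteinases, was at 9.75, 9.86 and 9.75 in NDF and at 8.19, 8.91 and 9.10 in CAF, a difference of -1.05 without overlap (adjusted p = 0.225). Timp1, an inhibitor known to be induced in inflamed tissue, was at 9.55, 8.25 and 8.19 in NDF and at 9.79, 9.10 and 10.38 in CAF, a difference of 1.09 with overlap (adjusted p = 0.57). Timp3, the matrix-bound inhibitor of ADAM17 and the aggrecanases, which was chosen after its values were seen, was at 12.36, 12.71 and 12.73 in NDF and at 12.59, 12.40 and 11.24 in CAF. Only CAF replicate 3 was low there, and the difference was -0.52 (adjusted p = 0.802).

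The proprotein convertase gene Pcsk5 was at 9.42, 9.08 and 9.10 in NDF and at 9.86, 10.15 and 9.58 in CAF, a difference of 0.66 (adjusted p = 0.397), which was -0.10 without probe sets that can match other transcripts. Sh3pxd2a, a scaffold of invadopodia that binds ADAMs, differed by -0.57 without overlap (adjusted p = 0.427). Tspan5, a tetraspanin that carries ADAM10 to the surface, differed by -0.32, also without overlap (adjusted p = 0.694).

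Of 30 listed membrane proteins shed by ADAM10 or ADAM17, 28 were measured, and 1 rose by limma, beside 0.489% of all genes. A further 6 had an unadjusted p below 0.05, all with higher means in CAF (7 of 28 with Ereg, beside 4.93% of all genes), and the median difference was 0.17. The list was chosen with earlier results of these data known, so this share is no independent test. Ereg, a ligand of the EGF receptor, rose from 4.18, 5.24 and 5.09 in NDF to 9.93, 9.93 and 8.51 in CAF. The groups were far apart, with a difference of 4.62 ± 0.47 (SE, adjusted p = 0.0186). With any single array left out the difference of Ereg stayed between 4.29 and 5.09. However, Ereg no longer passed when NDF replicate 1, 2 or 3 was left out (adjusted p = 0.0826, 0.0912 and 0.109), nor when CAF replicate 2 was (0.0557). It did not pass with the replicate number as a block either (adjusted p = 0.08).

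The TNF receptor gene Tnfrsf1b was at 7.10, 6.77 and 6.34 in NDF and at 7.97, 8.14 and 8.37 in CAF, a difference of 1.43 (adjusted p = 0.0822). With 1 array left out the difference of Tnfrsf1b was 1.23 to 1.61, but its lowest value over all alternatives was 0.53. Notch1, a receptor cut by ADAM10, differed by 1.13, the epithelial cadherin gene Cdh1 by 1.58, the growth factor gene Egf by 0.62 and the adhesion ligand gene Icam1 by 0.61 (adjusted p = 0.272, 0.298, 0.335 and 0.43). In each of these genes, which were named for their small p, the CAF arrays lay above the NDF arrays. Over the 28 measured, the CAF arrays lay above for 11 and below for 2, beside 6.78% and 8.66% of all genes. The 2 below were Prnp and Mertk, with differences of -0.32 and -0.54. Cdh1 is also on the list of the keratinocyte markers and Csf1r, another listed substrate, on that of macrophage markers, and their lists were higher on the same arrays. Egf was below the median probe set.

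Of 18 listed matrix and plasma proteins that ADAMTS proteins cut or bind, 17 were measured and none passed the test by limma. An unadjusted p below 0.05 was found for 1 gene of 17 with a higher and 2 with a lower mean in CAF, beside 4.93% and 4.02% of all genes, and the median difference was -0.17. Vwf, the plasma protein cut by ADAMTS13, is an endothelial gene and differed by 1.13 without overlap (adjusted p = 0.216), on arrays whose endothelial markers were also higher. Col2a1, the collagen of cartilage, was at 10.61, 9.86 and 10.39 in NDF and at 8.29, 9.36 and 9.17 in CAF, a difference of -1.35 (adjusted p = 0.229), and belongs to the chondrocyte markers. Col1a2, a procollagen chain, was at 13.71, 13.75 and 13.71 in NDF and at 13.38, 13.18 and 13.05 in CAF, a difference of -0.52 (adjusted p = 0.402). The proteoglycan gene Bgn differed by -0.33 and the microfibril gene Fbn2 by -0.54 (adjusted p = 0.675 and 0.723). The aggrecanase targets Vcan and Acan, chosen after their values were seen, differed by -0.35 and -0.38 with overlapping groups (adjusted p = 0.791 and 0.869).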

How the data were processed

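Per the labels' protocols, 1 round of WT-Ovation amplification preceded biotin labelling. The deposited values are log2 intensities made by the authors with GCOS and RMA, per the submitters' processing notes, with versions not given in the sources used here. RMA subtracts background and quantile normalises the arrays, which compresses low values. No detection calls were used, so no bound from background was set, and the number of arrays limits the precision.

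Probe sets were named by the platform annotation. Of 45037 probe sets other than controls, 34945 name 1 gene, and the one with the highest mean over all 6 arrays stood for each gene. Genes of the family that no probe set names alone were not analysed here. The comparison of CAF with NDF used limma 3.58.1 in R 4.3.3 (two-sided, group as the only term, all 18193 genes, Benjamini-Hochberg over all genes, threshold 0.05). Standard errors and 95% intervals are the moderated ones, with 2.79 prior degrees of freedom. On simulated data with 18193 genes the fit found 16%, 70%, 86% and 96% of the genes given true differences of 1, 2, 3 and 4 on the log2 scale. Figures were drawn with matplotlib 3.10.9.

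The members and lists were chosen with earlier results of these data known. Named were expressed members, other members with an unadjusted p under 0.05 or without overlap, and from each list of regulators, shed and matrix substrates the genes past the threshold and up to 5 more with the smallest p. Alternatives were a replicate block, 3 normalisations, 2 filters, 3 choices of probe sets, 2 priors, array weights, another threshold and leaving out each array. A joint omission of CAF replicate 3 with NDF replicate 1 was added after seeing the data.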

Additional observations from a re-analysis of the deposited data

How the results depend on the processing

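The count of family members past the threshold was 0 under the replicate block, 3 normalisations, both filters, all 3 choices of probe sets, the robust prior and without any single array, and also without CAF replicate 3 and NDF replicate 1 together. It was 1 with an intensity trend, 1 at an adjusted p under 0.1 (where 1.09% of all genes pass) and 3 with array weights. Matrix substrates numbered 1 with the trend and 1 with array weights, regulators 1 with array weights, and shed substrates 3 with array weights and 2 at an adjusted p under 0.1. Shed substrates numbered 0 to 1 with 1 array left out and 0 with the replicate block. Deviations from the group means correlated at -0.15, 0.11 and -0.01 between same-numbered arrays and at -0.11 to 0.12 between the others. With 3 arrays a group these values cannot show whether the arrays were paired. The block left 20 of all genes past the threshold, beside 94 without it. That count was 155 with the trend, 438 with array weights, 11, 8 and 5 without NDF replicates 1, 2 and 3, and 102, 40 and 156 without CAF replicates 1, 2 and 3. Signs turned for uncalled genes with small or uneven differences. Adam11 was at 0.0003 on quantile normalisation and 0.027 on cyclic loess. On the mean of all probe sets Adam23 was at -0.069, Adam15 at -0.0039, Adamts5 at -0.0009, Adamts9 at 0.13 and Adamtsl5 at 0.17. Without cross-matching probe sets Adam15 was at -0.31, Adam28 at 0.0047 and Pcsk5 at -0.10. On the probe set with the smallest p Adam23 was at -0.33, Adam15 at -0.31, Adamts5 at -0.43 and Adamtsl5 at 0.38. With array weights Adam23 was at -0.12 and Adamtsl5 at 0.26. Without CAF replicate 3 and NDF replicate 1 Adam23 was at -0.15, Adamts10 at 0.01 and Adamtsl5 at 0.14. With 1 array left out Adam11 ranged from -0.09 to 0.11, Adam23 from -0.10 to 0.29, Adam28 from -0.33 to 0.11, Adamts5 from -0.26 to 0.78, Adamts10 from -1.93 to 0.22 and Adamtsl5 from -0.28 to 0.20. The cause of these turns was not tested. Adam11 kept its sign, at -0.16, without CAF replicate 3 and NDF replicate 1. With 3 arrays a group, members near the floor of the scale show only compressed differences.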

Other observations

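Relatives outside the rule were also measured. Adamdec1, a decysin known from the gut that shares the protease domain, was below the median probe set, at 4.48, 3.39 and 3.37 in NDF and 3.25, 3.57 and 3.38 in CAF. Thsd4, also known as Adamtsl6, was at 5.27, 5.14 and 5.08 in NDF and at 4.51, 4.68 and 5.15 in CAF, a difference of -0.39 (limma adjusted p = 0.71). Papilin (Papln), a matrix protein with repeats like those of ADAMTS proteins, was below the median and differed by 0.04. A further 5 probe sets name 2 genes each, 4 of them Adam1a with the kinase gene Mapkapk5 and 1 Adam6a with Adam6b, and their differences ran from -0.31 to 0.13.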
